A study of Mus musculus with 2 samples.

Results

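The vascular endothelial growth factor (VEGF) and angiopoietin systems were described gene by gene and cell class by cell class in single-nucleus RNA-Seq of mouse inguinal white adipose tissue (iWAT, a subcutaneous depot). The 10 genes were 5 ligands (Vegfa, Vegfb, Vegfc, Angpt1 and Angpt2), 4 receptors (Flt1, Kdr, Flt4 and Tek) and the co-receptor Nrp1. They were chosen by name and were 10 of the 31053 genes in each matrix, and all 10 had UMIs (unique molecular identifiers, which mark captured RNA molecules) in both libraries. Male mice on a Western diet, whose age the labels do not give, were used, and the iWAT of 3 mice was pooled for each library, with 1 library labelled Lexis WT and 1 labelled Lexis KO. The study deleted Lexis, which encodes a long noncoding transcript, and its adipose knockout joined a floxed Lexis allele to adiponectin-cre, so that deletion was driven in adipocytes, while controls carried the floxed allele without Cre. For both libraries the genotype in the file name is the reverse of the one in the sample label, and Lexis itself was not analysed here. The labels were therefore not checked against the deleted gene, which of the names is right is not known, and every direction below is that of the labels as given. With 1 library per genotype, no test between genotypes was possible. Intervals are 95% intervals of counting error, and they do not cover the spread between mice or libraries.

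VEGF-A binds KDR (VEGFR-2), the main signalling receptor of blood vessel endothelium, and FLT1 (VEGFR-1), which binds it tightly and signals weakly. VEGF-B binds FLT1, and VEGF-C acts mainly through FLT4 (VEGFR-3), the receptor known for lymphatic vessel growth. ANGPT1 activates TEK (TIE2) and keeps vessels quiescent, ANGPT2 can oppose it, and NRP1 is a co-receptor shared by VEGF and class 3 semaphorins. Fat depends on this exchange, because adipocytes send VEGF-A to the capillaries that supply them.

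RefSeq (GRCm38.p6) promoter windows were found for 8 of the 10 genes, and for 4 of these the 250 bases before the start lay outside the annotated gene. These sequences are shown for the ligand with the most adipocyte UMIs, Vegfa, and for the VEGF-C ligand and receptor pair, Vegfc and Flt4. They lie at chr17:46032378-46032627 on the minus strand, chr8:54077282-54077531 on the plus strand and chr11:49609429-49609678 on the plus strand. Capitals mark the ETS core GGAA or its reverse complement TTCC, a motif of endothelial transcription factors.
Vegfa: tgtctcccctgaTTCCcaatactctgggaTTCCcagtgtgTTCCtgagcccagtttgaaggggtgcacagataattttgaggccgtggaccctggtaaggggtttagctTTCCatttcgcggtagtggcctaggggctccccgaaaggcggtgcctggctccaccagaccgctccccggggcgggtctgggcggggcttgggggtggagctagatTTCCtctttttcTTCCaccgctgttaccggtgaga
Vegfc: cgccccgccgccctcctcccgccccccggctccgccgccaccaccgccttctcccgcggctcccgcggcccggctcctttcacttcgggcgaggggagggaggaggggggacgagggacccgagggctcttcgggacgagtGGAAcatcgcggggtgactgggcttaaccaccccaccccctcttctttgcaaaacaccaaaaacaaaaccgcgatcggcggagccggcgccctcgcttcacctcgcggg
Flt4: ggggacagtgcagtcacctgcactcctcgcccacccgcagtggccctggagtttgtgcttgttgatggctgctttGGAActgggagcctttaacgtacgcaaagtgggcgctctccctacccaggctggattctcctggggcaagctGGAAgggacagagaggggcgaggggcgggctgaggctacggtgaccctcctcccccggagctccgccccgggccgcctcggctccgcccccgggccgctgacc
The Vegfa window held 6 matches, the Vegfc window 1 and the Flt4 window 2. Of 32851 RefSeq windows of 250 bases, 93.4% held at least 1 match, with a median of 3, so a match is common. The hypoxia response core ACGTG (reverse complement CACGT) was in 16.6% of all windows and in none of these 3. The matches describe letters in these windows only.

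Nuclei with at least 500 genes and at most 5% mitochondrial UMIs were kept, which left 3503 nuclei with a median of 1195 UMIs in the library labelled WT and 2852 nuclei with a median of 3879 UMIs in the library labelled KO after doublet removal. The 2 libraries shared 10 kept barcodes. Classes were named from marker genes as adipocyte-like, ASPC-like (adipogenic stem and precursor cells), endothelial-like, mural-like, myeloid-like, lymphocyte-like and myocyte-like clusters, and are written without the suffix below. The WT and KO labelled libraries held 418 and 894 adipocyte nuclei, 298 and 786 ASPC nuclei, 91 and 122 endothelial nuclei, and 335 and 839 myeloid nuclei. Lymphocytes were 2101 of the 3503 nuclei labelled WT and 106 of the 2852 labelled KO. Different clusters held most of a class in the 2 libraries: cluster 4 and cluster 1 for adipocytes, cluster 8 and clusters 5 and 6 for ASPCs, and cluster 7 and clusters 3 and 9 for myeloid nuclei. Endothelial nuclei of both libraries formed 1 cluster, in which all 12 endothelial markers passed the naming rule. Levels are summed UMIs of a gene over the UMIs of the class, scaled to counts per 1000000 (CPM).

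Vegfa was highest in adipocytes in both libraries. Adipocytes labelled WT held 1599 Vegfa UMIs, or 819 CPM (779-860), and adipocytes labelled KO held 4389, or 508 CPM (493-523). Among the 5 main classes (adipocyte, ASPC, endothelial, myeloid and lymphocyte) the next was the ASPC in each library, and the adipocyte level was 3.80 times (3.23-4.49) the ASPC level under the WT label and 7.52 times (6.57-8.64) under the KO label. Adipocyte nuclei carried 76.4% (74.5-78.2) of all Vegfa UMIs of the kept nuclei labelled WT and 92.4% (91.6-93.2) of those labelled KO, shares that move with the number of adipocyte nuclei captured.

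The Vegfa level was lower under the KO label in all 4 classes compared. The ratio of KO over WT label was 0.620 (0.586-0.657) in adipocytes, 0.313 (0.255-0.386) in ASPCs, 0.221 (0.0964-0.465) in endothelial nuclei and 0.368 (0.241-0.568) in myeloid nuclei. Per nucleus the adipocyte order was the other way, with 3.83 UMIs labelled WT and 4.91 labelled KO, beside median depths of 3652 and 7849 UMIs per adipocyte nucleus. At an equal depth of 1000 UMIs, 50.2% (45.3-55.2) of adipocyte nuclei labelled WT and 36.7% (33.5-39.9) labelled KO held a Vegfa UMI, after 10 and 5 shallower nuclei were left out. Without thinning these shares were 82.8% and 87.2%. Lymphocytes, which stood for background, gave 2.31% and 3.30% at the same depth, with median depths of 1009 and 2048 UMIs before thinning.

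Outside adipocytes the Vegfa level was set beside that of barcodes with few genes. By their intervals, myeloid nuclei lay below these barcodes in both libraries, and ASPCs labelled WT lay above them. The intervals of ASPCs labelled KO, and of endothelial nuclei in both libraries, overlapped those of the barcodes. Barcodes with under 500 genes held 112 CPM labelled WT and 68.3 CPM labelled KO. Endothelial nuclei held 185 CPM (30 UMIs) and 40.8 CPM (10 UMIs), and myeloid nuclei 59.0 CPM and 21.7 CPM. ASPCs held 216 CPM labelled WT, of which 1 nucleus gave 30 of 161 UMIs, and 67.6 CPM labelled KO. Without the nucleus with the most Vegfa UMIs in each library the ASPC ratio was 0.366 (0.293-0.458). Outside the 5 main classes the level could be higher than in ASPCs. The 52 myocyte nuclei labelled KO held 204 CPM (153-266), and the adipocyte level was 2.49 times theirs (1.90-3.32). The unnamed cluster 11, all labelled WT, held 662 CPM, and the adipocyte level was 1.24 times that (1.06-1.45). The part of free RNA in these differences was not tested.

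**Figure D1:**
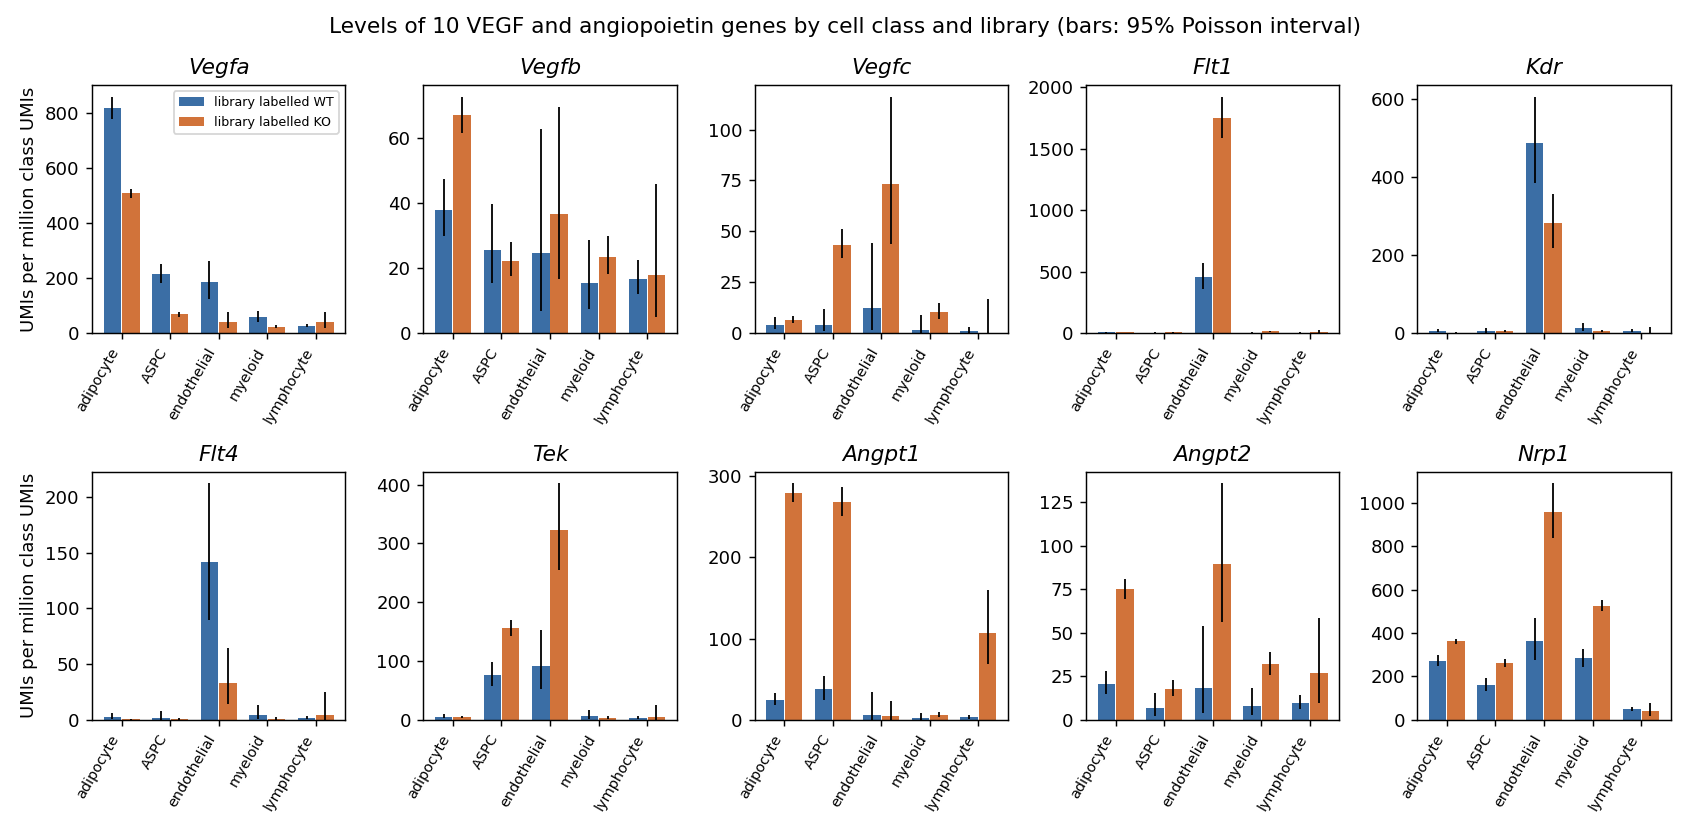
Levels in CPM (y axis) of each of the 10 genes in 5 cell classes (x axis), with 1 bar per library and 95% Poisson intervals; each panel has its own scale from 0. Vegfa was highest in adipocytes, Flt1, Kdr and Flt4 in endothelial nuclei, and Tek in endothelial nuclei and ASPCs, while Nrp1 was present in all 5 classes and lowest in lymphocytes.

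Vegfb, the FLT1-binding ligand, was also highest in adipocytes among the 5 main classes. Adipocytes labelled WT held 74 UMIs (37.9 CPM, 29.8-47.6) and those labelled KO 580 (67.1 CPM, 61.8-72.8), a ratio of 1.77 (1.39-2.29). The next of the 5 main classes were the ASPC labelled WT at 25.4 CPM and the endothelial class labelled KO at 36.7 CPM, and the interval of the adipocyte level over these included 1 in each library (0.890-2.61 and 0.956-4.02). The barcodes with under 500 genes held 22.9 and 46.2 CPM of Vegfb. At 1000 UMIs, 3.92% (2.26-6.29) of adipocyte nuclei labelled WT and 8.44% (6.69-10.5) labelled KO held a Vegfb UMI, against 15.1% and 42.1% without thinning and 1.48% and 2.20% of lymphocytes at that depth.

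Vegfc, a ligand of FLT4, was sparse. Vegfd, a VEGF gene outside the 10 members, held 88.4 CPM labelled WT and 144 CPM labelled KO in ASPCs. In adipocytes Vegfd held 23.6 and 41.4 CPM. The kept nuclei labelled WT held 25 UMIs in all and those labelled KO 247. The unnamed cluster 11 held 8 of the 25 labelled WT, at 28.0 CPM (12.1-55.2). Barcodes with under 500 genes held 4.57 CPM labelled WT and 2.07 CPM labelled KO. ASPCs labelled WT held 3 UMIs (4.02 CPM) and ASPCs labelled KO 144 (43.4 CPM), a ratio of 10.8 with an interval of 3.63-53.0. Endothelial nuclei held 2 UMIs (12.3 CPM) and 18 UMIs (73.5 CPM), a ratio of 5.97 (1.43-53.1). Under the KO label the endothelial level was 1.69 times (0.975-2.77) that of ASPCs, so their order was not separable from counting error, but ASPCs gave 58.3% (51.9-64.5) of the Vegfc UMIs. Adipocytes held 4.10 and 6.36 CPM, a ratio of 1.55 (0.736-3.78), but 1 nucleus gave 4 of the 8 UMIs labelled WT. Without the nucleus with the most Vegfc UMIs in each library the adipocyte ratio was 2.76 (1.01-10.5), an interval that leaves out 1. That nucleus was chosen by its UMIs and held 4 of 8 labelled WT and 6 of 55 labelled KO. The interval does not allow for that choice, and 4 UMIs labelled WT were left.

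Angpt1, the TEK agonist, came from adipocytes, ASPCs and mural nuclei, the perivascular cells. Adipocytes labelled WT held 48 UMIs (24.6 CPM, 18.1-32.6) and adipocytes labelled KO held 2418 (280 CPM, 269-291). ASPCs held 28 UMIs (37.5 CPM, 24.9-54.2) and 889 UMIs (268 CPM, 251-286). The ratio was 11.4 (8.56-15.5) in adipocytes and 7.15 (4.91-10.8) in ASPCs, and no other adipocyte ratio of the 10 genes was as far from 1. On the log2 scale these were 3.51 and 2.84, and 1.92 and 1.11 less the trend of all genes on gene length. Barcodes with under 500 genes held 13.7 CPM (5.03-29.9) labelled WT and 17.3 CPM labelled KO. The WT labelled interval of these barcodes overlapped those of adipocytes and ASPCs labelled WT. Under the KO label adipocytes and ASPCs did not differ beyond counting error (1.04 times, 0.966-1.13), and the 44 mural nuclei stood at 264 CPM (186-364). The 10 mural nuclei labelled WT held 2 UMIs. Endothelial nuclei held 1 Angpt1 UMI in each library, beside 15 and 79 UMIs of its receptor Tek.

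The Angpt1 difference was also present at equal depth. At 1000 UMIs per nucleus, 2.70% (1.35-4.77) of adipocyte nuclei labelled WT and 222 of 889 labelled KO (interval of the share 22.2-28.0%) held a UMI, against 8.85% and 66.0% without thinning. Among ASPCs the shares were 4.62% (2.41-7.92) and 20.2% (17.4-23.2) thinned, and 8.72% and 41.1% unthinned. Lymphocytes gave 0.278% and 6.59% thinned. The KO labelled lymphocytes were not free of the gene: cluster 14, led by natural killer receptor genes (Klra8, Klra4, Ncr1), held 23 of their 24 Angpt1 UMIs in 7 of 60 nuclei, with at most 6 in a nucleus.

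Angpt2, which can oppose ANGPT1 at TEK, was close in adipocytes and endothelial nuclei by level. Adipocytes carried 42.1% (32.0-52.7) of its UMIs labelled WT, where lymphocytes carried 26.3% (17.8-36.4), and 77.1% (74.2-79.9) labelled KO. Adipocytes held 40 UMIs (20.5 CPM) labelled WT and 648 (74.98 CPM) labelled KO, a ratio of 3.66 (2.66-5.17). Endothelial nuclei held 3 UMIs (18.5 CPM) and 22 (89.8 CPM), a ratio of 4.87 (1.46-25.4). The ratio of the higher to the lower of these classes had an interval that included 1 in each library (0.353-5.61 labelled WT, 0.745-1.83 labelled KO). Myeloid nuclei held 5 UMIs (7.77 CPM) and 88 UMIs (31.9 CPM), and the unnamed cluster 11 labelled WT held 14 UMIs (49.0 CPM). Barcodes with under 500 genes held 6.86 and 2.07 CPM of Angpt2.

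Flt1, the VEGF-A and VEGF-B receptor, and Kdr were nearly restricted to endothelial nuclei. Endothelial nuclei labelled WT held 74 Flt1 UMIs (455 CPM, 357-571), 74.1 times the next of the 5 main classes, and those labelled KO held 429 (1751 CPM, 1589-1925), 118 times the next. The 44 mural nuclei labelled KO held 136 CPM on 19 UMIs, but 17 of these were in 1 nucleus and only 2 nuclei held any. For Kdr the endothelial nuclei held 79 UMIs (486 CPM, 385-606) and 69 UMIs (282 CPM, 219-356), which were 39.1 and 62.2 times the next of the 5. Cluster 11 labelled WT held 9 Kdr UMIs (31.5 CPM) and the mural nuclei labelled KO 3 UMIs, all in 1 nucleus. The endothelial level labelled WT was 15.4 times (7.72-34.95) that of cluster 11. A gene was called endothelial-restricted where its endothelial CPM was at least 4 times that of each other class of the 5. Under the WT label 3 of the genes met this (Flt1, Kdr and Flt4), beside 1.81% of the 12706 genes measured, and under the KO label Flt1 and Kdr did, beside 2.2% of 15321 genes. Flt4 held 15 UMIs in the library labelled KO, too few for the rule. These receptors were not used in the clustering, but Flt1 and Kdr are known endothelial genes and the class was named from genes that move with them.

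The 2 main VEGF receptors went in opposite directions between the labels. The Flt1 ratio of KO over WT label in endothelial nuclei was 3.85 (3.00-4.99), and the Kdr ratio was 0.579 (0.413-0.811). At 1000 UMIs, 12 of 60 endothelial nuclei labelled WT (interval of the share 10.8-32.3%) and 55 of 102 labelled KO (43.8-63.8%) held Flt1, against 24.2% and 61.5% unthinned, and lymphocytes gave 0.556% and 0 of 91 nuclei. For Kdr the thinned shares were 31.7% (20.3-45.0) and 21.6% (14.0-30.8), against 34.1% and 32.0% unthinned, with overlapping intervals. Both receptors moved with the processing. With at least 1000 genes per nucleus and at a clustering resolution of 0.2, the WT labelled Flt1 level was 216 and 171 CPM in place of 455, and its log2 ratio 3.16 and 3.36 in place of 1.94, while 0.71 was left with the trend of all genes on gene length subtracted. The Kdr log2 ratio was -0.79, but 0.11 and 0.51 under the same pair of settings. A few nuclei carried much of the WT labelled signal, with 28 of 74 Flt1 UMIs and 21 of 79 Kdr UMIs in 1 nucleus each. Without the nucleus with the most UMIs in each library the Flt1 ratio was 5.48 (4.03-7.60) and the Kdr ratio 0.693 (0.479-1.01), which includes 1. That nucleus was chosen by its UMIs, and these intervals do not allow for the choice. For Flt1 it held 28 of 74 UMIs labelled WT and 27 of 429 labelled KO.

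The receptors were found in overlapping but unequal sets of endothelial nuclei. Under the KO label 75 of 122 nuclei held Flt1 and 39 held Kdr, and 33 of the 39 Kdr nuclei also held Flt1. Under the WT label 22 of 91 held Flt1 and 31 held Kdr, and 6 held both. These are counts of detected UMIs at low depth, and an absent UMI does not show an absent transcript.

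Flt4, the VEGF-C receptor, was sparse and followed lymphatic markers. Endothelial nuclei held 23 UMIs (141 CPM, 89.7-212) labelled WT and 8 UMIs (32.6 CPM, 14.1-64.3) labelled KO, a ratio of 0.231 (0.0892-0.534). Without the nucleus with the most Flt4 UMIs in each library, which held 14 and 4, the levels were 57.0 and 16.5 CPM and the ratio 0.289 (0.0650-1.03), an interval that includes 1. In 17 of 91 endothelial nuclei labelled WT and 3 of 122 labelled KO, 2 or more of the lymphatic markers Prox1, Mmrn1, Lyve1, Reln and Pdpn were detected. The lymphatic marked nuclei held 19 of the 23 Flt4 UMIs labelled WT and 4 of the 8 labelled KO. The Flt4 level in them was 478 CPM (288-747) against 32.6 CPM (8.87-83.4) in the other endothelial nuclei labelled WT, 14.7 times higher (4.88-59.4), although 1 nucleus gave 14 of the UMIs, and all 4 labelled KO were in 1 nucleus. Flt1 and Tek had 0 UMIs in the lymphatic marked nuclei of either library, where 3 UMIs would have been 75.6 CPM labelled WT and 368 CPM labelled KO. Kdr was present in them under the WT label at 378 CPM (211-623), not separable from the 521 CPM of the other endothelial nuclei (0.725 times, 0.384-1.29).

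**Figure D2:**
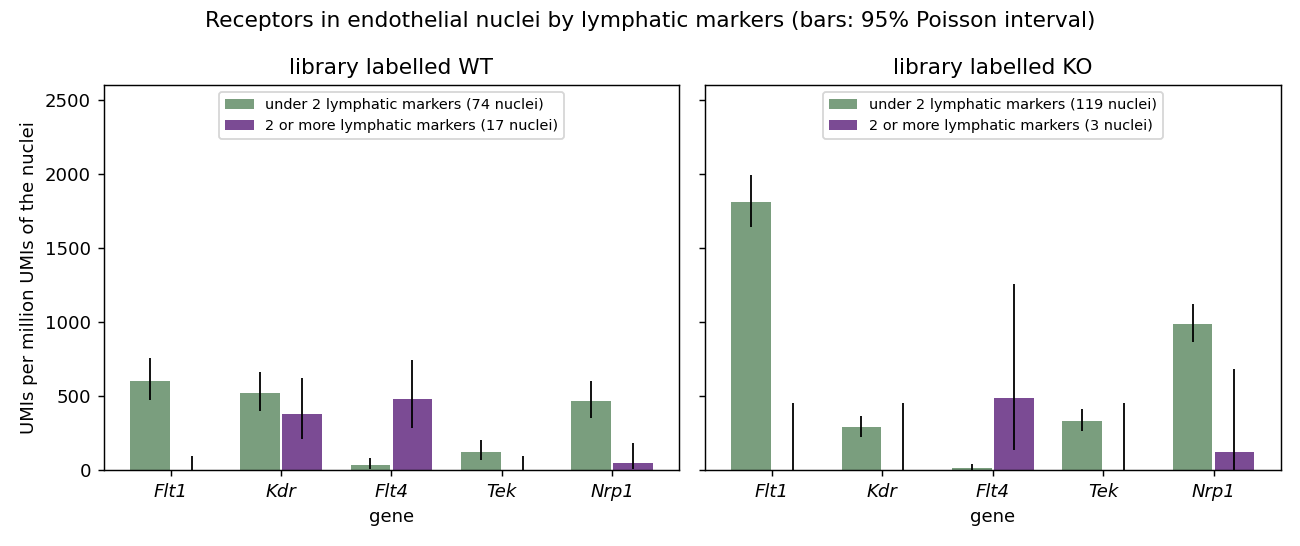
Levels in CPM (y axis) of 5 receptors (x axis) in endothelial nuclei with under 2 and with 2 or more lymphatic markers, 1 panel per library, with 95% Poisson intervals. Flt4 was higher in the marked nuclei and Flt1 and Tek were at 0 there, but the KO labelled panel rests on 3 marked nuclei.

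Without the lymphatic marked nuclei the intervals of Flt1, Kdr, Tek and Nrp1 still left out 1. The Flt4 ratio was 0.519 on 4 UMIs in each library, and its interval of 0.0966-2.78 includes both 1 and the ratio in the whole class, so a difference was not detectable at this depth. The ratios became 3.01 (2.34-3.90) for Flt1, 0.559 (0.392-0.798) for Kdr, 2.73 (1.56-5.11) for Tek and 2.13 (1.59-2.90) for Nrp1. In the nuclei with 0 lymphatic markers the ratios of Flt1, Tek and Nrp1 were nearer 1, at 2.25 (1.75-2.94) for Flt1, 2.05 (1.15-3.93) for Tek and 1.57 (1.16-2.15) for Nrp1, while Kdr stood at 0.515 (0.353-0.756). Vegfa there was 0.480 (0.159-1.52), which includes 1, and Flt4 had 1 and 4 UMIs. Vegfc was 3.36 (0.804-29.8), which now includes 1, and Angpt2 was 8.21 (1.33-339), on 1 and 22 UMIs. The endothelial nuclei differed between labels in other vessel markers too. The summed capillary list (Rgcc, Gpihbp1, Cd36, Car4, Aqp1, Btnl9 and Meox2) stood at 4275 CPM labelled WT and 7081 CPM labelled KO, the venous list at 1138 and 588 CPM, and the arterial list at 351 and 367 CPM. The members of a list did not move as one. Cd36 (1655 and 3669 CPM) and Meox2 (203 and 1086 CPM) were higher under the KO label, whereas Gpihbp1 (849 and 612 CPM) and Aqp1 (910.4 and 698 CPM) were lower. Of the venous list, Nr2f2 went from 603 to 114 CPM, Ackr1 from 67.7 to 28.6 CPM and Selp from 73.8 to 20.4 CPM. The Ackr1 and Selp levels rest on 11 and 7 UMIs and on 12 and 5 UMIs. Vwf (117 and 139 CPM) and Lrg1 (277 and 286 CPM) were close. Of the lymph node vessel markers (Glycam1, Madcam1, Chst4 and Fut7), all 4 were detected labelled WT, with 129 UMIs in 15 nuclei, and 3 of 4 labelled KO, with 4 UMIs in 2 nuclei. The lymph nodes were said to have been taken out before nuclei were isolated. The summed lymphocyte markers in the endothelial class were 793 and 12.2 CPM, and the 10 adipocyte markers, all detected in both libraries, summed to 566 and 1298 CPM there. The part of these differences in the receptor ratios was not tested.

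Tek, the angiopoietin receptor, was highest in endothelial nuclei and ASPCs among the 5 main classes. Endothelial nuclei held 15 UMIs (92.3 CPM, 51.6-152) labelled WT and 79 (322 CPM, 255-402) labelled KO, a ratio of 3.49 (2.00-6.54). The level labelled WT was 31.4 CPM with at least 1000 genes and 33.7 CPM at resolution 0.2. ASPCs held 57 UMIs (76.3 CPM, 57.8-98.9) and 518 UMIs (156 CPM, 143-170), a ratio of 2.05 (1.55-2.74). On the log2 scale this ASPC ratio was 1.03, but 0.77 without mitochondrial genes and Malat1, and its sign turned, to -0.078, less the trend on gene length. Under the WT label these classes did not differ beyond counting error (1.21 times, 0.636-2.16), and under the KO label the endothelial level was 2.06 times (1.61-2.62) that of ASPCs. Since ASPCs outnumbered endothelial nuclei, they carried 57 of the 95 Tek UMIs labelled WT (interval of the share 49.4-69.9%) and 77.9% (74.5-81.0) labelled KO. Adipocytes held 5.12 and 4.28 CPM, and lymphocytes 2.72 and 4.48 CPM. Myocyte nuclei labelled KO held 16 Tek UMIs (60.5 CPM, 34.6-98.2) in 13 of 52 nuclei. At 1000 UMIs, 10.4% (6.96-14.7) and 15.5% (12.97-18.2) of ASPC nuclei held Tek, against 15.8% and 33.0% unthinned and 0.370% and 1.10% of lymphocytes thinned.

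Within the ASPCs labelled KO, Tek and Angpt1 were highest in different clusters. Cluster 6 (373 nuclei, led by Sntg1, Sema3e and Dact2 among other genes) held 397 Tek UMIs, or 323 CPM, and cluster 5 (382 nuclei, led by Ccbe1, Gpr39, Pde11a and Sfrp2) held 117, or 57.6 CPM, which was 0.178 times (0.144-0.220) the level in cluster 6. Angpt1 was 339 CPM in cluster 5 and 157 CPM in cluster 6, 2.16 times higher (1.84-2.55) in cluster 5. Nrp1 was 370 and 87.1 CPM, 4.25 times higher (3.47-5.25) in cluster 5, and Vegfc 55.1 and 24.4 CPM, 2.26 times higher (1.50-3.50). Vegfa did not differ between these clusters beyond counting error (0.773 times, 0.588-1.02). Cluster 8 held 293 of the 298 ASPC nuclei labelled WT, with Tek at 80.3 CPM, Angpt1 at 36.6 CPM and Vegfa at 225 CPM. These clusters were chosen by their transcriptomes, although none of the 10 genes was used in the clustering.

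**Figure D3:**
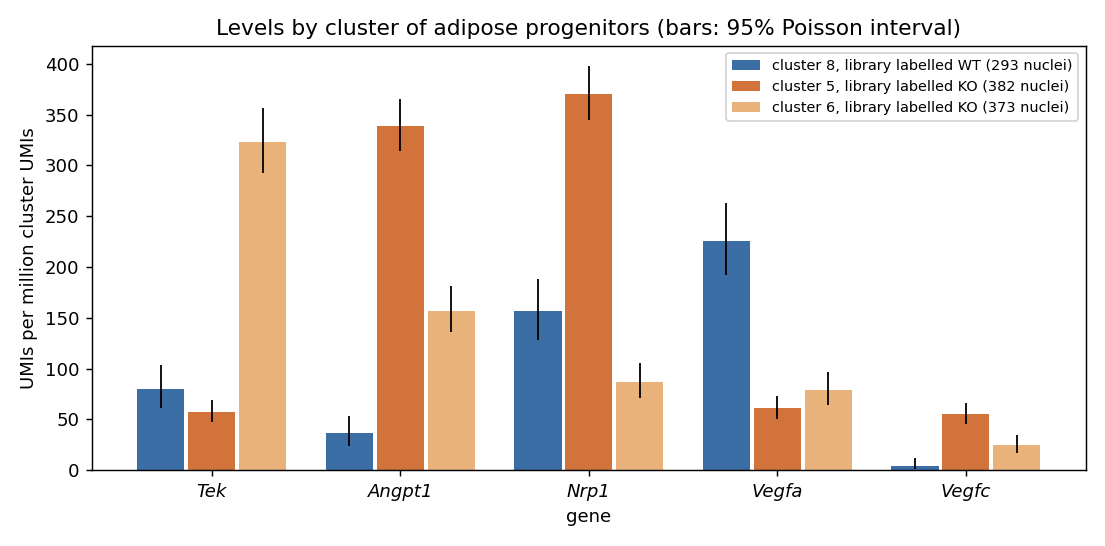
Levels in CPM (y axis) of 5 genes (x axis) in the ASPC clusters of at least 100 nuclei, with 95% Poisson intervals; 1 cluster came from the library labelled WT and 2 from the library labelled KO. Tek was highest in cluster 6 at 323 CPM, and Angpt1 and Nrp1 were highest in cluster 5 at 339 and 370 CPM.

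Nrp1, the VEGF and semaphorin co-receptor, was present in each of the 4 classes compared. Endothelial nuclei held 59 UMIs (363 CPM, 276-468) labelled WT and 235 (959 CPM, 840-1090) labelled KO, a ratio of 2.64 (1.98-3.58). Myeloid nuclei held 183 UMIs (284 CPM) and 1454 (526 CPM), a ratio of 1.85 (1.59-2.17). Adipocytes held 532 UMIs (272 CPM) and 3123 (361 CPM), a ratio of 1.33 (1.21-1.46), and ASPCs 120 (161 CPM) and 868 (262 CPM), a ratio of 1.63 (1.34-1.99). Less the trend on gene length the adipocyte, ASPC and myeloid log2 ratios turned sign, to -0.68, -0.49 and -0.28. The endothelial level was 1.28 times (0.935-1.72) the myeloid level labelled WT and 1.82 times (1.58-2.09) labelled KO. Mural nuclei labelled KO held 556 CPM (440-695), and lymphocytes 48.2 and 40.3 CPM.

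Myeloid Nrp1 varied with the cluster. Cluster 3 (541 nuclei, all labelled KO, with Vsig4 and Rbpj among its leading genes) held 642 CPM, 2.05 times (1.80-2.33) the 314 CPM of the KO labelled nuclei of cluster 9, which Dcstamp led. Cluster 7, with 315 nuclei labelled WT and Timd4 as a leading gene, held 299.6 CPM. In endothelial nuclei labelled WT, Nrp1 was 50.4 CPM in the lymphatic marked nuclei and 464 CPM in the others, 0.109 times (0.0128-0.411).

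The 10 genes were next counted by size within each class, as at least 2 times higher or lower under the KO label with at least 20 UMIs over both libraries. In adipocytes 9 genes had enough UMIs, and 2 were higher (Angpt1 and Angpt2) and 1 lower (Kdr, on 10 and 11 UMIs), beside 25.7% higher and 20.7% lower among 13528 genes. Without the nucleus with the most UMIs of the gene in each library, Vegfc (2.76 times, 1.01-10.5) and Flt1 (2.06 times, 0.890-5.87) also passed. That nucleus was chosen by its UMIs, and 4 Vegfc and 6 Flt1 UMIs labelled WT were left. Kdr, at 0.201 times on 9 and 8 UMIs, then fell under the minimum. In ASPCs 8 had enough UMIs, and 4 were higher (Vegfc, Tek, Angpt1 and Angpt2) and 1 lower (Vegfa), beside 24.6% and 11.7% of 11796 genes. In endothelial nuclei 8 had enough, and 5 were higher (Vegfc, Flt1, Tek, Angpt2 and Nrp1) and 2 lower (Vegfa and Flt4), beside 26.6% and 17.7% of 4503 genes. In myeloid nuclei 7 had enough, and 3 were higher and 2 lower, beside 23.7% and 16.2% of 11208 genes. The higher were Vegfc (1 and 28 UMIs), Flt1 (1 and 41) and Angpt2 (5 and 88), and the lower Vegfa and Kdr (8 and 12). The Kdr call was lost under several alternatives, given in the last section. Vegfc and Angpt2 in the ASPC, endothelial and myeloid classes, Tek in endothelial nuclei and Flt1 in myeloid nuclei had under 20 UMIs labelled WT. They reached the minimum only with their KO labelled UMIs. Vegfa and Flt4 in endothelial nuclei, called lower, had 10 and 8 UMIs labelled KO. They reached the minimum only with their 30 and 23 UMIs labelled WT. None of these calls is independent of the minimum. The median log2 ratio of the members was 0.54, 0.87, 1.60 and 0.89 in these classes, and that of all genes -0.05, 0.10, 0.09 and 0.01. With mitochondrial genes and Malat1 left out of the totals every log2 ratio moved by -0.25, -0.27, -0.14 and -0.21, and the share of higher genes among all genes past 2 times went from 55.4% to 42.4% in adipocytes, from 67.8% to 49.5% in ASPCs and from 59.4% to 46.8% in myeloid nuclei. No ratio of a member with at least 20 UMIs turned sign under it, but Tek in ASPCs no longer passed 2 times, as with TMM scaling (trimmed mean of M values), where its log2 ratio was 0.99. Angpt2 passed the size rule in all 4 classes and Vegfa in the ASPC, endothelial and myeloid classes.

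**Figure D4:**
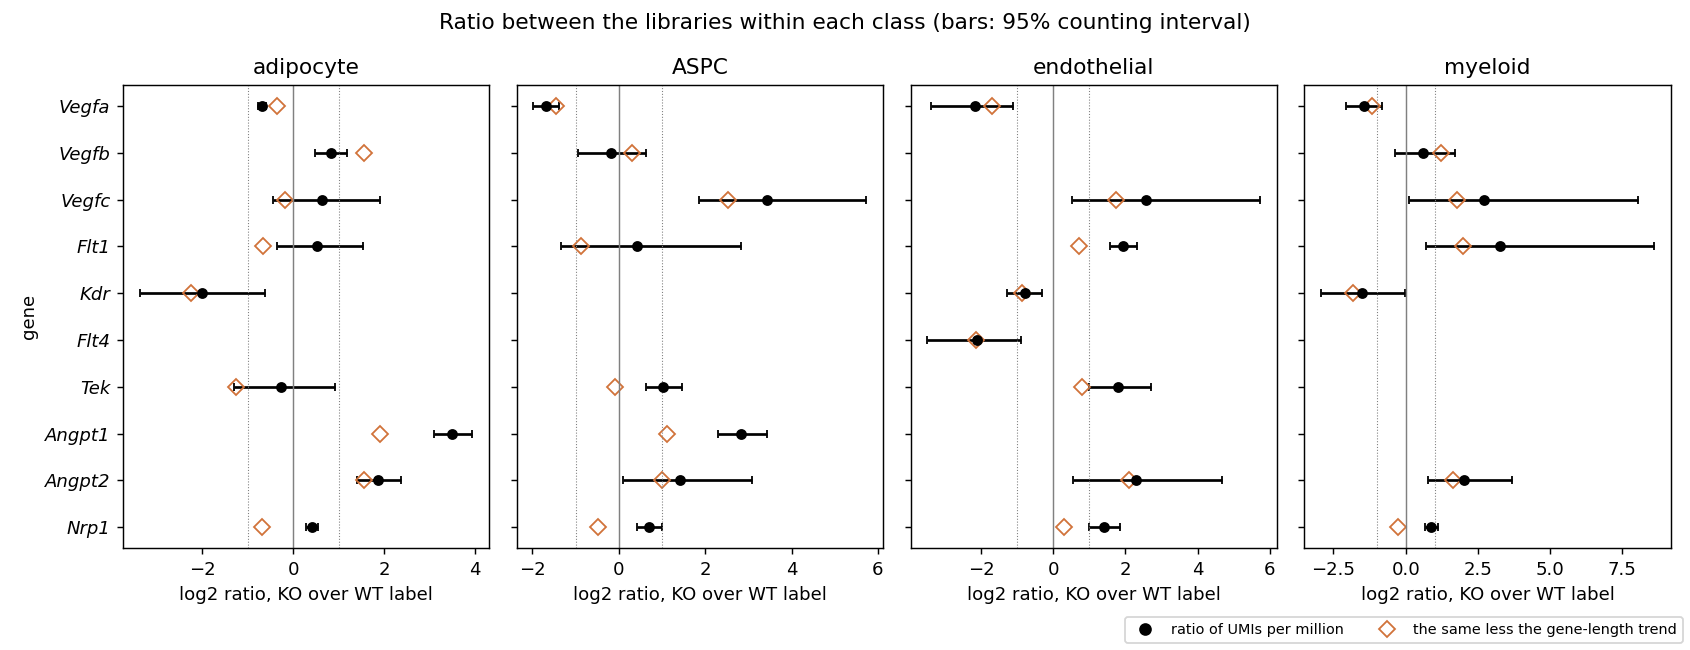
Log2 ratio of the KO over the WT labelled library (x axis) for each gene (y axis) in 4 classes; black points are ratios of CPM with 95% counting intervals, open diamonds the same less the trend of all genes on gene length, and dotted lines mark 2 times. Vegfa lay below 0 in each class and Angpt2 above 0, while the Nrp1 diamonds lay below 0 in 3 classes.

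Log2 ratios between these libraries rose with gene length over all genes. In adipocytes the median log2 ratio was -0.75 for genes of up to 10 kb and 1.28 for genes over 100 kb, and in the ASPC, endothelial and myeloid classes the pairs were -0.51 and 1.41, -0.77 and 1.28, and -0.65 and 1.30. Of the 10 genes, Vegfc (108.9 kb), Flt1 (164.8 kb), Tek (135.9 kb), Angpt1 (252.3 kb) and Nrp1 (146.9 kb), were over 100 kb, whereas Vegfa (15.4 kb) and Vegfb (5.18 kb) were short. With the trend subtracted, the adipocyte log2 ratio was 1.92 for Angpt1, 1.56 for Angpt2, 1.55 for Vegfb and -0.35 for Vegfa. The endothelial values were 0.71 for Flt1, 0.80 for Tek, 0.31 for Nrp1, 2.10 for Angpt2, -0.88 for Kdr and -2.14 for Flt4. Beside Nrp1 in 3 classes and Tek in ASPCs, given above, the sign turned for 4 ratios whose intervals included 1, from 0.64 to -0.18 for Vegfc and 0.54 to -0.66 for Flt1 in adipocytes, and from 0.43 to -0.88 for Flt1 and -0.19 to 0.31 for Vegfb in ASPCs. In ASPCs Angpt1 kept 1.11, Vegfc 2.53 and Vegfa -1.46. On this scale 2 endothelial genes were at least 2 times higher, beside 18.3% of all genes, in place of 5. The part of gene length in these ratios was not tested.

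**Figure D5:**
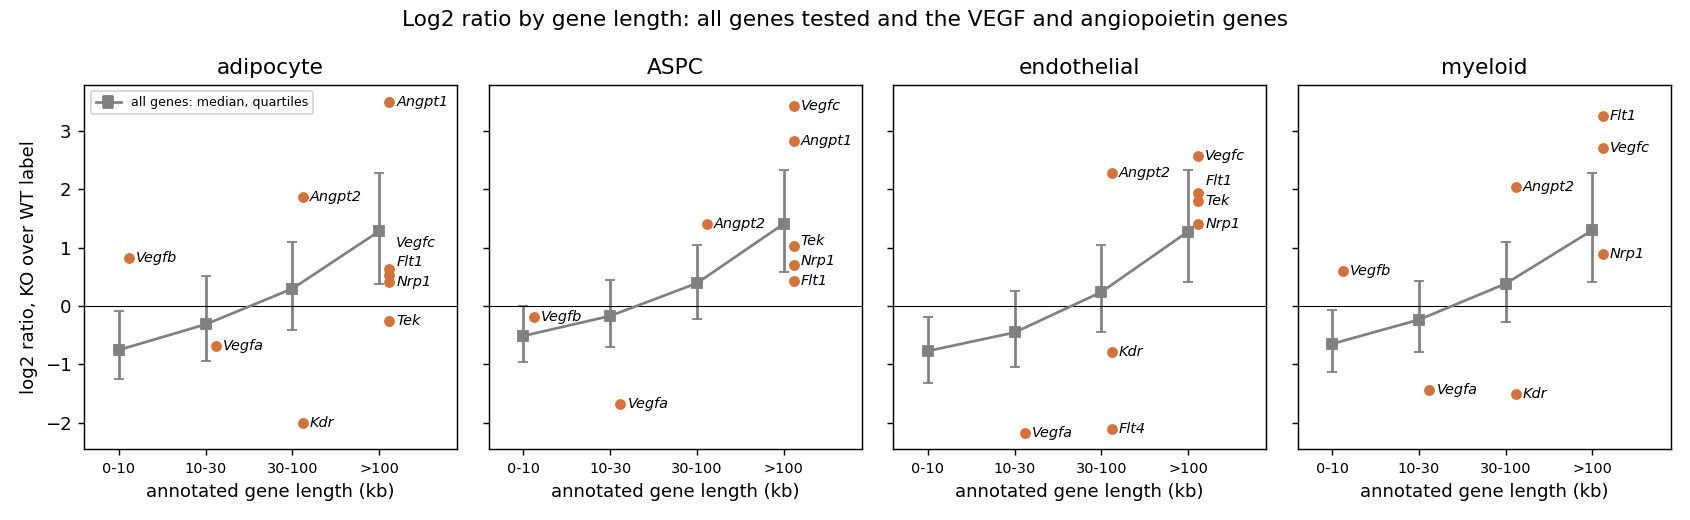
Log2 ratio of the KO over the WT labelled library (y axis) by annotated gene length in kb (x axis, 4 bins) in 4 classes; grey squares and bars are the median and quartiles of all genes tested, and orange points the VEGF and angiopoietin genes. Angpt1 and Angpt2 lay above the upper quartile of their bins in adipocytes, Kdr below the lower quartile in 3 classes, and Nrp1 near or below the median of long genes.

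In a list of 45 other genes of these pathways, genes past 2 times were found in both directions in every class. In adipocytes 33 had enough UMIs, of which 6 were at least 2 times higher and 7 at least 2 times lower under the KO label. The counts were 6 and 8 of 32 in ASPCs, 10 and 5 of 32 in endothelial nuclei, and 4 and 4 of 24 in myeloid nuclei. The shares of all genes were those above, 25.7% higher and 20.7% lower in adipocytes, 24.6% and 11.7% in ASPCs, 26.6% and 17.7% in endothelial nuclei, and 23.7% and 16.2% in myeloid nuclei, so these counts were near the background apart from the 8 lower in ASPCs. Less the gene length trend the counts, in the same class order, were 5 and 8, 3 and 8, 9 and 5, and 2 and 6. The shares of all genes were then 19.5% and 16.1%, 15.4% and 11.9%, 18.3% and 15.5%, and 16.7% and 13.8%. Arnt, the partner of the hypoxia-inducible factors, was higher in all 4 classes, by 2.54 times in adipocytes, 3.03 in ASPCs, 2.65 in endothelial nuclei and 2.29 in myeloid nuclei. The Arnt log2 ratio less the length trend was 0.91 in adipocytes and 0.66 in myeloid nuclei, under 2 times, and 0.99 in myeloid nuclei without mitochondrial genes and Malat1. Foxo1, a transcription factor held in check by TEK signalling through AKT, was 7.83, 3.20, 4.40 and 2.75 times higher in the same order. Less the length trend its log2 ratio was 0.996 in ASPCs and 0.75 in myeloid nuclei, under 2 times. Epas1, which encodes HIF-2 alpha, was 3.06 times (2.25-4.28) higher in adipocytes and 3.76 times (2.35-6.30) higher in endothelial nuclei. Ptprb, a phosphatase that restrains TEK, was at 726 CPM and 1551 CPM in endothelial nuclei, a ratio of 2.14 (1.73-2.65). On the log2 scale this was 1.10, but 0.96 without mitochondrial genes and Malat1 and 0.24 with the length trend subtracted.

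Angptl4, an inhibitor of lipoprotein lipase, was lower in adipocytes (590 and 228 CPM, 0.386 times), ASPCs (295 and 71.5 CPM, 0.243 times) and myeloid nuclei (93.2 and 34.4 CPM, 0.369 times). Less the length trend its log2 ratio was -0.73 in adipocytes and -0.86 in myeloid nuclei, within 2 times. Ets1, an endothelial and lymphoid transcription factor, was 0.130 times the WT labelled level in adipocytes, 0.307 in ASPCs, 0.101 in myeloid nuclei and 0.728 in endothelial nuclei. The summed lymphocyte markers in the adipocyte class were 322 CPM labelled WT and 14.2 CPM labelled KO. They were 442 and 7.84 CPM in ASPCs and 836 and 373 CPM in myeloid nuclei, and their part in the Ets1 ratios was not tested. Among the class 3 semaphorins in ASPCs, Sema3a was 7.29 times (3.65-17.1) and Sema3e, a ligand of PLXND1, 9.99 times (6.97-14.9) higher. With the length trend subtracted their log2 ratios went from 2.87 to 0.50 and from 3.32 to 1.67, so that Sema3a no longer passed 2 times. Sema3c stood at 1.21 times (1.08-1.35), but its log2 ratio of 0.27 was 0.0021 without mitochondrial genes and Malat1 and -0.98 less the length trend. In endothelial nuclei Sema3a was 0.0498 times (0.00985-0.156) the WT labelled level, on 40 and 3 UMIs. Plxnd1 itself was 0.182 times (0.118-0.279) the WT labelled level in ASPCs. Notch4, an endothelial Notch receptor, was at 61.5 and 204 CPM in endothelial nuclei, a ratio of 3.32 (1.66-7.34).

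Patterns over 14 profiles (each a class or unnamed cluster in 1 library with at least 20 nuclei, as log2 of CPM plus 10) were compared with 5625 other genes. The profiles share 2 libraries and differ in depth, so the correlations are descriptions. Kdr was nearest to Egfl7 (r = 0.954), Aqp1 (0.947) and Smad1 (0.895), and Flt1 to Arhgef7 (0.937), Egfl7 (0.911) and Smad1 (0.879). Egfl7 was among the 12 markers used to name the endothelial class, so its match to genes high in that class follows in part from the naming. Flt4 was nearest to Aqp1 (0.939), Tek to Ece1 (0.892), Nrp1 to App (0.937) and Vegfa to Ltbp3 (0.891). Vegfb was nearest to Npr3 (0.897) and Adipor2 (0.891), Vegfc to Thsd7a (0.824), Angpt1 to Sox5 (0.894) and Angpt2 to Map4k3 (0.912). Among the members, Kdr and Flt4 (0.924) and Flt1 and Kdr (0.890) were closest to each other.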

How the data were processed

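Single-nucleus libraries of iWAT were made by the authors with 10x chemistry. The deposited UMI counts, from Cell Ranger 6.1.1 per the file headers on mm10 per the submitters' processing notes, held 5000 barcodes per library, with 9376351 UMIs labelled WT and 19655049 labelled KO. Nuclei under 500 genes or over 5% mitochondrial UMIs were left out. Scrublet (scanpy 1.11.5) marked 92 nuclei labelled KO and none labelled WT, where the 146 nuclei with the top 4% of scores were left out. Counts of both libraries were merged and clustered in Seurat 5.3.0 (2000 variable genes, 20 components, resolution 0.5) without the 10 genes, 6 of which were variable. A class name needed 3 passing markers and a lead of 3 over the next class. Ratios have exact conditional binomial intervals, levels exact Poisson intervals and shares Clopper-Pearson intervals, all for counting error only. The ratio and its interval were tested on simulated independent Poisson class sums. These do not hold UMIs gathered in single nuclei, so the test does not cover that case. TMM factors came from edgeR 4.0.16, and the length trend from statsmodels 0.14.6. Named genes were the members and some pathway genes. A pathway gene needed at least 20 UMIs and a place among the 5 with most UMIs in a class. Otherwise it had to pass 2 times with an interval leaving out 1 and at least 50 UMIs. A selection of these is printed, and Vegfd is printed beside Vegfc outside this rule. The members, lists and rules were chosen with earlier results of these data known. Alternatives were doublets left in, 1000 genes, resolutions of 0.2 and 1.0, integration, a lead of 2 markers, the members among the clustering genes, TMM scaling, totals without mitochondrial genes and Malat1, a minimum of 50 UMIs, and length.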

Additional observations from a re-analysis of the deposited data

Results flagged for a closer look

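Signal was present in nuclei that belong to none of the compared classes. Cluster 11 held 152 nuclei, all labelled WT, and stayed unnamed because its mural and lymphoid stroma markers were near in number; Serpina10, Ch25h and Ccl19 were among its leading genes. Vegfa stood at 662 CPM (571-763) there, on 189 UMIs, and Nrp1 at 291 CPM (232-360), on 83 UMIs. The barcodes labelled WT with under 500 genes held 112 CPM of Vegfa and 59.4 CPM of Nrp1. Neither value could be set against the library labelled KO, which had 0 nuclei in the cluster.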

How the results depend on the processing

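No paired analysis was possible because each genotype has 1 library. Leaving out a replicate was likewise not possible. Of 360 log2 ratios recomputed under the alternatives, 332 stayed inside the counting interval of the reported value, 22 lay outside it and 6 whose intervals left out 1 turned sign. Of 140 shares of UMIs 10 moved and of 140 CPM levels 8 moved, among them endothelial Flt1 labelled WT at 216 CPM with at least 1000 genes and 171 CPM at resolution 0.2, and of 40 shares of nuclei with a UMI 23 moved without thinning or with thinning to 500 UMIs. The Kdr log2 ratio in endothelial nuclei became 0.11 with at least 1000 genes per nucleus and 0.51 at resolution 0.2; the cause was not tested. With the gene-length trend subtracted, Nrp1 became -0.68 in adipocytes, -0.49 in ASPCs and -0.28 in myeloid nuclei, and Tek -0.078 in ASPCs, and 4 ratios whose intervals included 1 also turned. That subtraction also gave 2 members at least 2 times higher in endothelial nuclei in place of 5, and 2 lower in adipocytes in place of 1. With at least 1000 genes, or without the nucleus with most UMIs of the gene in each library (chosen after seeing the data), 4 members were higher in adipocytes in place of 2, and 0 lower in place of 1: without that nucleus Kdr was 0.201 times (0.0675-0.587) on 9 and 8 UMIs, under the minimum of 20. Members lower in endothelial nuclei numbered 1 in place of 2 at resolution 0.2, without that nucleus, and without the lymphatic marked nuclei (also chosen after seeing the data). In that order Flt4 had log2 ratios of -0.95, -1.79 and -0.95. Without that nucleus Flt4 was still past 2 times but held 9 and 4 UMIs, under the minimum of 20. Members lower in myeloid nuclei numbered 1 in place of 2 with doublets left in, with at least 1000 genes, at resolution 1.0, with integration, with the members among the clustering genes, and without that nucleus, where Kdr was 0.298 times (0.0989-0.943) on 7 and 9 UMIs, too few to be counted. A minimum of 50 UMIs left 1 pathway gene lower in endothelial nuclei in place of 5, since fewer genes were counted. The class with the highest level was the same for 18 of 18 gene and library pairs under 5 of the 7 clustering alternatives and for 16 of 18 under the other two, where Tek labelled WT was highest in ASPCs and Angpt2 labelled WT in endothelial nuclei. TMM scaling moved adipocyte log2 ratios by 0.12 and turned no sign of a member with at least 20 UMIs. Depth limits Flt4 and Vegfc most, with 15 Flt4 UMIs labelled KO and 25 Vegfc UMIs labelled WT.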
